A study of Mus musculus with 38 samples.

Results

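The secreted Wnt signals, their cell-surface receptors and the secreted proteins that tune them were followed in epidermal stem cells (EpdSCs) in which the transcription factor SOX9 was switched on. The 43 genes, called members below, were chosen by family name: 19 Wnt ligands, 10 Frizzled receptors, the co-receptors *Lrp5* and *Lrp6*, 4 Dickkopf genes, 4 secreted Frizzled-related genes (*Sfrp*) and 4 R-spondins. All 43 were found among 21938 protein-coding genes, which leaves 21895 others for comparison. A locus was the gene body with 20 kb on each side, and every called interval that overlapped it by at least 1 bp was counted. Loci had a median length of 60.8 kb, against 57.4 kb for the other genes.

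The skin samples came from male mice that carry the labelled genotype K14rtTA; TRE-myc-Sox9, in which doxycycline (DOX) turns on MYC-tagged SOX9 wherever the *Krt14* promoter is active. D0 is skin without induction, and W1, W2, W6 and W12 followed 1, 2, 6 and 12 weeks of DOX, which for W1 to W6 began at postnatal day 21. The W12 skin had grown as a graft of newborn transgenic skin on immunodeficient Nude hosts, so that time and grafting cannot be told apart there. EpdSCs were sorted from back skin as cells negative for CD31, CD45, CD117, CD140a and CD34 and high for CD49f and Ly6A. MINT-ChIP, in which chromatin of several samples is barcoded and then precipitated together, was run for H3K4me1, which marks enhancers both primed and active, and H3K27ac, which marks enhancers and promoters in use. In culture, H3K4me1 was taken in male EpdSCs labelled K14rtTA; TRE-myc-Sox9varients, transduced with a lentivirus for MYC-tagged SOX9. The lists are WT SOX9 without DOX (no DOX), WT SOX9 with DOX (WT), and, with DOX, SOX9 without its DNA-binding HMG domain (ΔHMG) or without its transactivation domain (ΔTA).

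Each mark and time point has 1 list of intervals, called on the pooled reads of 2 libraries (a high and a low MNase digest) at D0, W1 and W12 and of 4 at W2 and W6. The spread between replicates is therefore unknown, no test was possible, and changes below are differences between pooled lists. By their titles, each D0, W1 and W12 library held replicates 1 and 2, while the W6 replicates had separate libraries. The W12 libraries also held the first W2 replicate, told apart by barcode, and are among the 4 of W2. Every time point thus had 2 replicates. A locus was called up or down where its covered bases, plus an offset of 200 bp, changed by at least 1.5-fold, and "rose" and "fell" below mean such a call. All 4 skin comparisons share D0 and all 3 culture comparisons share the list without DOX. The H3K27ac lists held 29081 to 33985 peaks covering 23.1 to 32.1 Mb, the H3K4me1 lists of skin 69439 to 87287 domains covering 264 to 310 Mb, and the culture lists 110589 to 123338 domains covering 120 to 133 Mb. H3K27ac was shallow: the background pileup, the mean number of stacked fragments expected by chance, was 0.501 at D0 and, from W1 to W12, 0.299, 0.425, 0.677 and 0.412, so W6 was the deepest list and W1 the shallowest. A median peak stood on about 8 fragments at D0 and W2, 6 at W1 and W12 and 10 at W6. As a check of the sort, 6 of 6 basal epidermal genes (*Krt5*, *Krt14*, *Trp63*, *Itga6*, *Itgb4* and *Col17a1*) had an H3K27ac peak within 1000 bp of a start site in all 5 lists. Of 5 genes for surface proteins sorted against, *Pecam1* had one at W6 and W12 and the other 4 had none, and neither did *Col1a1*, *Cd3e* or *Mlana* in any list. The part of such cells in the results was not tested. In bulk cells, a smaller share of cells with a mark and less of it per cell cannot be told apart.

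Wnt ligands are lipid-modified secreted proteins that bind a Frizzled receptor. In the canonical pathway they bring Frizzled together with LRP5 or LRP6, which halts the destruction of β-catenin, so that it can act with TCF and LEF factors on target genes. Dickkopf proteins such as DKK1 block the LRP co-receptors, SFRP proteins bind Wnt ligands outside the cell, and R-spondins raise the number of receptors at the membrane by removing the ligases that degrade them. In skin, Wnt signals are needed to form hair follicles, and epidermal basal cells make Wnt ligands themselves.

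After induction, H3K27ac peaks were called at fewer of the ligand regions and at more of the receptor regions. The split into ligands and receptors was chosen after the data were seen, so this contrast only describes these lists. Peaks of the 5 lists were merged into 178 regions at these loci, each counted once where 2 loci share it. Of 81 ligand regions, 55 had a peak at D0, and 36, 19, 25 and 30 had one from W1 to W12. Of 63 receptor regions, 20 had a peak at D0, and 28, 33, 35 and 27 had one from W1 to W12. The ligand share was 67.9% at D0, 23.5% at W2, 30.9% at W6 and 37.0% at W12, while the receptor share was 31.7%, 52.4%, 55.6% and 42.9%. Over the 51334 regions at other coding genes this share stayed between 43.6% and 47.1% in all 5 lists. The ligand fall was uneven among loci. *Wnt3*, *Wnt3a*, *Wnt5a* and *Wnt7b* had 9, 8, 7 and 9 peaks at D0 and 1, 1, 0 and 0 at W2. Summed over the 19 ligand loci, with shared peaks counted at each locus, there were 66 peaks at D0 and 23 at W2. The 34 regions of the secreted modulators had a peak in 7, 14, 14, 8 and 12 cases. Leaving out regions at promoters of neighbouring genes gave 48, 31, 13, 19 and 26 of 74 ligand regions and 19, 27, 32, 34 and 26 of 62 receptor regions. The W1, W2 and W12 lists were shallower than D0 and the W6 list deeper, and the part of depth in these counts was not tested.

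**Figure D1:**
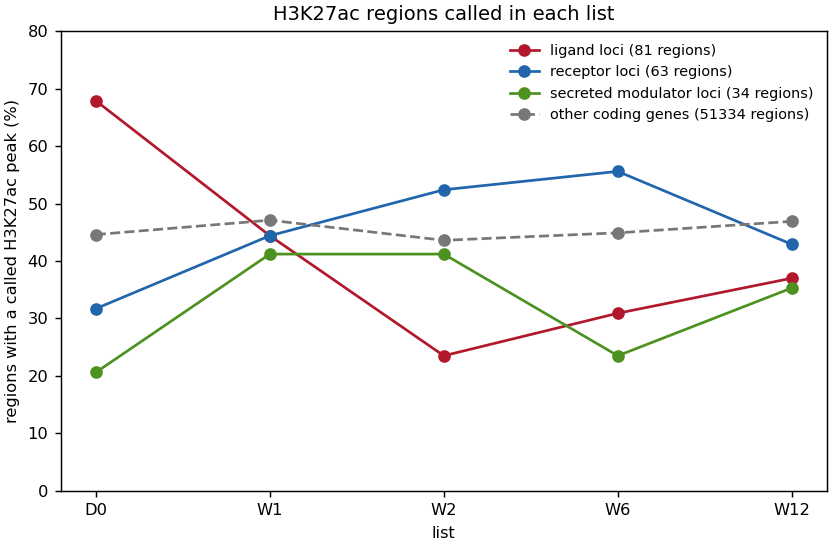
Share of merged H3K27ac regions with a called peak (y axis, %) in each of the 5 lists (x axis), for ligand (81 regions), receptor (63), secreted modulator (34) and all other coding loci (51334, dashed). Each point is 1 pooled list, without error bars because there are no replicate lists. The split by role was chosen after the data were seen. The ligand line drops from 67.9% at D0 to 23.5% at W2 and the receptor line climbs from 31.7% at D0 to 55.6% at W6.

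Counted by locus, 9 members rose in H3K27ac at W1 and 11 fell, where 13.7% of other coding genes rose and 13.9% fell. At W2, 10 rose and 12 fell (15.9% and 11.9% of the others). At W6, 11 rose and 14 fell (19.6% and 9.16%), and at W12, 10 rose and 18 fell (14.5% and 29.2%). The members called down at W1, W2, W6 and W12 were 25.6%, 27.9%, 32.6% and 41.9% of the 43. Their exact 95% intervals were 13.5 to 41.2%, 15.3 to 43.7%, 19.1 to 48.5% and 27 to 57.9%. The share of other genes lay inside the interval at W1 and W12 and below it at W2 and W6. These intervals hold counting error only and take the loci as independent, which neighbouring ligands are not. Each week is also 1 pooled list, so they cannot decide whether members differ from other genes. Of the 19 ligands, 9, 10, 11 and 12 fell at W1, W2, W6 and W12, and 2, 1, 1 and 0 rose. Of the 12 receptors and co-receptors, 5, 7, 9 and 3 rose and 1, 1, 2 and 4 fell. Some ligands are neighbours, and *Wnt1* and *Wnt10b*, *Wnt3a* and *Wnt9a*, *Wnt6* and *Wnt10a*, and *Wnt3* and *Wnt9b* share 15672 to 33807 bp of their loci, so that their counts are not independent. The number of members with at least 1 peak was 27 at D0, then 28, 22, 25 and 29 in the later lists of 43, that is 51.2 to 67.4%, against 63.5 to 66.2% of other coding genes.

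**Figure D2:**
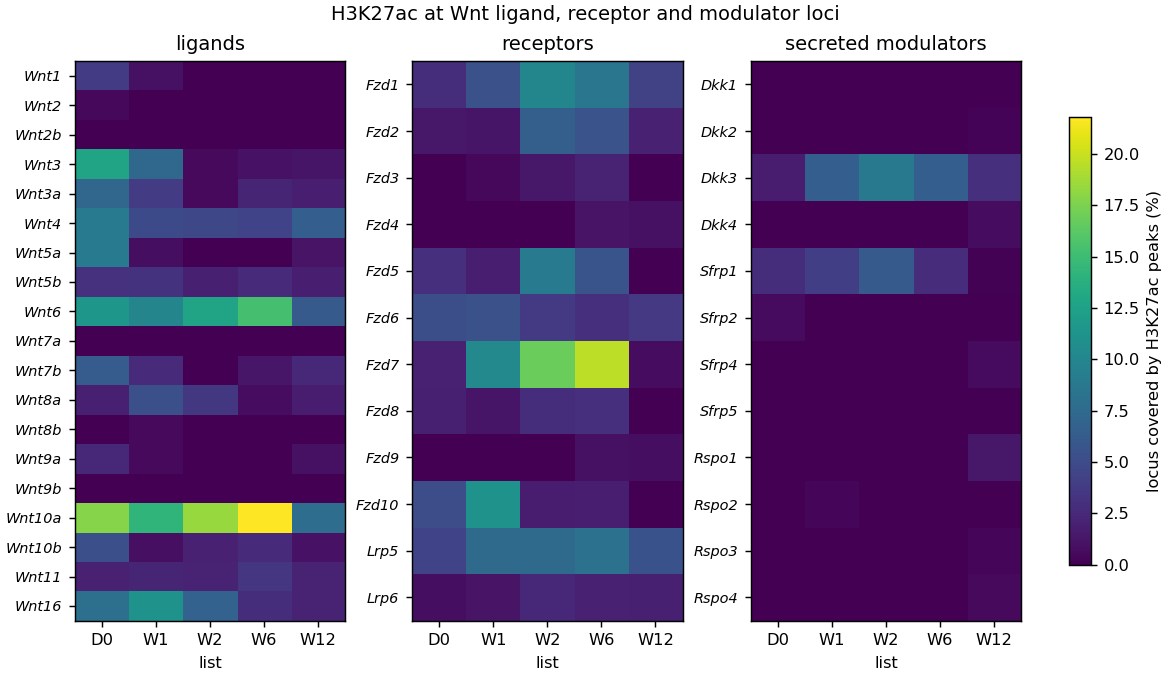
Percentage of each locus covered by H3K27ac peaks (colour, 0 to 21.8%) for the 43 genes (rows, in 3 panels by role) in the 5 skin lists (columns). *Wnt3*, *Wnt3a*, *Wnt5a* and *Wnt7b* darken (lower coverage) after D0, *Fzd7*, *Fzd1* and *Dkk3* brighten up to W2 or W6, and *Wnt10a* is brightest in every list.

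*Wnt3*, a canonical ligand, lost most in percentage points of the locus, while as a ratio to D0 *Wnt5a* and *Wnt7b* were lower at W2. H3K27ac covered 12.7% of its locus at D0, then 7.37%, 0.554%, 1.08% and 1.2% in the later lists, in 9, 9, 1, 1 and 2 peaks. The merged region at its start site (chr11:103772686-103776065, GRCm38/mm10) held a D0 peak across the start, with a fold enrichment, that is signal over background, of 10.7. At W1 the region held peaks downstream of the start (highest fold 6.16), at W2 and W6 none, and at W12 a peak upstream of the start (fold 6.38). Positions and folds given for several lists refer to such merged regions, with the highest fold of each list. Folds were not adjusted for the depth of a list. Behind it, 6 intronic peaks were called at D0, of which 3 were still called at W1 and 0 later. The strongest of those in the D0 list alone (chr11:103791480-103792085) had a fold of 5.33. The strongest of all 6 (chr11:103794816-103795767) had a fold of 8.0 at D0 and 4.62 at W1. One region past the 3′ end, in the neighbouring *Nsf* gene, was called in all 5 lists, with folds of 16.0, 6.93, 4.21, 5.37 and 4.96.

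*Wnt5a*, the main noncanonical ligand, had H3K27ac over 9.0% of its locus at D0 in 7 peaks, 0.789% at W1 in 1 peak, none at W2 and W6, and 1.18% at W12 in 2 peaks. The peak at a start site (chr14:28510289-28512099) had a fold of 10.7 at D0, was absent at W1, W2 and W6, and had a fold of 6.38 at W12. A cluster of 4 peaks lay 30755 to 33941 bp from the nearest start site, between genes. The peak of that cluster at chr14:28542160-28542712 (fold 10, about 14 stacked fragments) was called at D0 and in no later list, and only the last one, at chr14:28545346-28546240, was still called at W1, where its fold dropped from 10 to 3.85.

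*Wnt3a*, a canonical ligand, had coverage of 7.23%, 3.91%, 0.591%, 2.23% and 1.79% in the order D0, W1, W2, W6 and W12, and 8, 3, 1, 3 and 2 peaks. The single W2 peak, called in all 5 lists, is the promoter of the neighbour *Arf1*. An intronic peak at chr11:59259991-59261392 had a fold of 8.0 (about 11 fragments) at D0 and was in no later list. The *Wnt3a* promoter peak (chr11:59289543-59290699) had folds of 6.0 at D0, 4.62 at W1 and 7.08 at W12 and was not called at W2 and W6. *Wnt9a*, whose own start site carried no peak in any list, was called down in all 4 comparisons (2.48% at D0, 0.533% at W1, 0 at W2 and W6, 0.973% at W12), and of its 3 regions, 2 lay at the *Wnt3a* promoter and 1, called at D0 alone with a fold of 4.0, lay 3682 bp from the *Wnt9a* start site.

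*Wnt7b*, a canonical ligand of the epidermis, had 9 peaks over 6.31% of the locus at D0, 3 over 2.70% at W1, none at W2, 3 over 1.31% at W6 and 5 over 2.54% at W12. Both peaks at its start sites, with folds of 10 and 7.33 at D0, were called again only at W12, with folds of 4.25 and 4.96. An intronic peak at chr15:85547086-85547773 (fold 6.66, about 9 fragments) was in the D0 list alone.

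*Wnt10b*, a canonical ligand of hair follicle induction, went from 5.33% at D0 to 0.894%, 2.01%, 2.65% and 1.08% in the lists from W1 on. Its promoter peak (chr15:98776496-98777826) had folds of 6.0 at D0 and 3.85 at W1 and was then absent, and what remained at W2 and W6 was the promoter of *Arf3*. The *Wnt1* locus held the same *Wnt10b* peaks (3.83% at D0, 0.964% at W1, 0 later), with none at the *Wnt1* start site. *Wnt2* had 1 intronic peak at D0 (fold 4.0, 0.432% of the locus, about 5 fragments) and none later.

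*Wnt4*, *Wnt6* and *Wnt10a* had peaks in every list. H3K27ac covered 9.04%, 4.88%, 4.73%, 4.42% and 6.52% of the *Wnt4* locus from D0 to W12, which was called down at W1, W2 and W6. Its intronic peak (chr4:137280921-137285035) was in all 5 lists, with folds of 38.7 at D0 and, from W1 to W12, 13.1, 11.2, 18.5 and 9.21. *Wnt10a*, which is mutated in human ectodermal dysplasias, had the largest coverage of the 43 in each list, with 17.8% at D0, then 14.3%, 18.4%, 21.8% and 7.77% in the later lists. The adjacent *Wnt6* had 11.5%, 9.93%, 12.7%, 15.4% and 6.16%, and its own promoter had a peak only at W2 (fold 4.21) and W6 (fold 6.56). Both were called down at W12 alone. *Wnt16* had 8.01%, 11.1%, 6.82%, 2.86% and 2.20%, of which the values at W6 and W12 were called down. *Wnt5b* and *Wnt11* lay between 1.82% and 3.47% in all lists, with *Wnt5b* called down at W2 and W12 and *Wnt11* up at W6. *Wnt8a* ranged from 0.725% at W6, called down, to 5.34% at W1, called up as at W2, and *Wnt8b* had a single peak, at W1 (fold 3.06). *Wnt2b*, *Wnt7a* and *Wnt9b* had no H3K27ac peak in any list.

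The first 3 stretches of DNA below were chosen because they carry these losses. They are the 300 bases around the summits of the strongest D0-only peaks at *Wnt5a*, *Wnt3a* and *Wnt7b* (chr14:28542333-28542632, chr11:59260886-59261185 and chr15:85547388-85547687, forward strand of GRCm38.p6). Capitals mark the SOX core AACAAT or its reverse complement ATTGTT, of which the *Wnt5a* window holds 1 and the others 0. The TCF/LEF letters CTTTGAT or ATCAAAG occur in none of the 3.
Wnt5a distal: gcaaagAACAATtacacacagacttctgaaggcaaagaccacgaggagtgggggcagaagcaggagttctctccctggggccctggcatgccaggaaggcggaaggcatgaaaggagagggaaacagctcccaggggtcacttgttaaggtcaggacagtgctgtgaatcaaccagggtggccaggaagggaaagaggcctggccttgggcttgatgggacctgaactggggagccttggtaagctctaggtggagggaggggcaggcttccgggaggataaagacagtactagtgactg
Wnt3a intron: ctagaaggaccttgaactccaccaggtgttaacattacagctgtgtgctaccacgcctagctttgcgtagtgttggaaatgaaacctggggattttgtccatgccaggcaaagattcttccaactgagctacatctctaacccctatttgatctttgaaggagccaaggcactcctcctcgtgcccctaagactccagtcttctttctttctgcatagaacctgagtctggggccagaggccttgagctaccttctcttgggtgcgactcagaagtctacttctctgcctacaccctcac
Wnt7b intron: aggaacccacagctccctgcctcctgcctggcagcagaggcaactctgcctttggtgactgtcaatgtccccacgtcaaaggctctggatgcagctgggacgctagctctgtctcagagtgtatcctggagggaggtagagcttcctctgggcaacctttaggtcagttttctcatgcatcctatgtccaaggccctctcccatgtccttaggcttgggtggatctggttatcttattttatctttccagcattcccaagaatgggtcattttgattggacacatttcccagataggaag
The fourth, shown as the start of a ligand gene that fell, lies next to the lost *Wnt10b* peak and outside it. It is the *Wnt10b* promoter as RefSeq gives it in GRCm38.p6, 250 bases before to 50 after the start on the reverse strand (chr15:98778101-98778400), with the 18 CpG dinucleotides in capitals.
Wnt10b promoter: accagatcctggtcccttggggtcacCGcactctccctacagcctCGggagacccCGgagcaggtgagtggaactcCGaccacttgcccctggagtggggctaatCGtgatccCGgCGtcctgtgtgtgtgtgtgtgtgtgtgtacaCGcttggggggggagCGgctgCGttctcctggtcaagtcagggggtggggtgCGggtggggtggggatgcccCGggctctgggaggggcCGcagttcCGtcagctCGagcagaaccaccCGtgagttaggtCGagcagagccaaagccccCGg

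**Figure D3:**
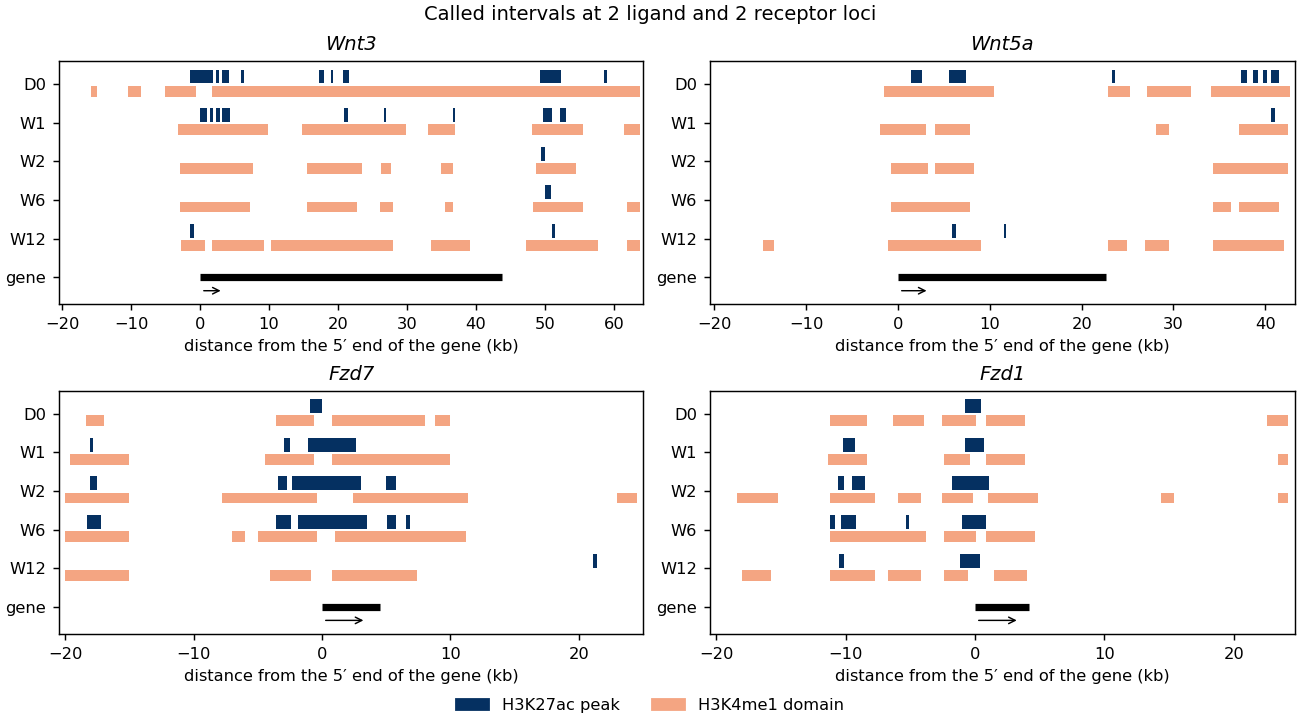
Called H3K27ac peaks (dark blue) and H3K4me1 domains (orange) at *Wnt3*, *Wnt5a*, *Fzd7* and *Fzd1* in the 5 lists (rows), drawn to scale by distance from the 5′ end of the gene in kb (x axis). At W1 there are 9 dark blue bars at *Wnt3*, not all at places called at D0, and 1 at *Wnt5a*. At W2 there are 1 and 0, while the bars spread around *Fzd7* and upstream of *Fzd1* from W1 to W6.

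Among the receptors, *Fzd7*, a Frizzled of canonical signalling in several stem cells, gained most in percentage points of the locus, and *Fzd3* more as a ratio to D0 at W2 and W6. H3K27ac covered 1.99% of its locus at D0, 10.3% at W1, 16.8% at W2 and 19.6% at W6, in 1, 3, 4 and 5 peaks, and 0.689% at W12 in 1 peak. The region at its start site (chr1:59480100-59485954) had folds of 8.0, 6.93, 10.5 and 13.7 from D0 to W6 and was not called at W12, and the D0 peak ended just before the start. A new peak just upstream (chr1:59478804-59480020) had folds of 3.85 at W1, 8.42 at W2 and 7.75 at W6, on about 4, 11 and 12 fragments. Another one 17207 bp from the start site (chr1:59464146-59465217) had folds of 3.08, 7.02 and 5.96, and neither was called at D0 or W12.

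*Fzd1* had 2.85% at D0 and, from W1 to W12, 5.43%, 10%, 8.53% and 4.2%. Its promoter was called in all lists, and a region 8498 bp upstream (chr5:4766533-4768671) was absent at D0 and then had folds of 3.85, 7.72, 8.95 and 6.38. *Fzd3*, a receptor of planar polarity and axon guidance, had no peak at D0 or W12 and 0.494%, 1.44% and 2.20% at W1, W2 and W6. Its promoter peak (chr14:65262334-65263219) had folds of 3.99, 4.91 and 8.35 in these 3 lists. *Fzd2* (1.37%, 1.21%, 6.62%, 5.6%, 2.02%) and *Fzd5* (2.99%, 1.80%, 8.98%, 5.69% and 0) rose at W2 and W6. *Fzd4* and *Fzd9* had a promoter peak at W6 only, with folds of 4.77 and 3.58, and a single peak away from the promoter at W12, so that both were called up at W6 and W12. *Fzd8* was covered at 1.21 to 2.94% until W6 and had no peak at W12, and *Fzd6* lay between 3.01% and 5.39%, called down at W6. *Fzd5* was called down at W1 and W12, and *Fzd7* and *Fzd8* at W12.

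*Fzd10* was called up at W1 and down in the other 3 comparisons. It had 5.14% at D0 and 11.1% at W1, then 1.71% and 1.84%, and none at W12, with 2, 6, 2, 3 and 0 peaks. Its promoter peak had folds of 9.33, 6.93, 4.21 and 6.56 from D0 to W6, and a region 2851 bp from the start site was called at D0 and W1 alone. A strong region at the edge of the locus, 19900 bp away (chr5:128577950-128580944), was called in all 5 lists with folds of 25.3, 15.4, 13.3, 14.9 and 6.38, and its D0 and W12 peaks ended just outside the 20 kb, so that they were not counted.

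Both co-receptors rose in 3 of the 4 comparisons, *Lrp5* at W1, W2 and W6 and *Lrp6* at W2, W6 and W12. *Lrp5* had 4.42% at D0, then 7.52%, 7.52%, 8.11% and 5.52% in the later lists, in 5, 8, 8, 9 and 11 peaks. Of its intronic peaks absent at D0, the one at chr19:3663966-3667243 had folds of 6.93, 5.61 and 7.16 at W1, W2 and W6, and the one at chr19:3660152-3661517 had folds of 7.70 at W1 and 4.17 at W6. *Lrp6* had 0.770%, 1.14%, 2.55%, 1.98% and 1.92%, and a region 10035 bp upstream (chr6:134576948-134578257) first appeared at W2, with folds of 6.32 at W2, 7.75 at W6 and 3.54 at W12. At their own start sites, 9 of 12 receptors and co-receptors were acetylated at D0, and 9, 10, 12 and 5 from W1 to W12. For the ligands these numbers were 9, 7, 4, 5 and 5 of 19, and for other coding genes 44.6%, 43.1%, 44.1%, 48.4% and 36.2%. The W12 list also covered the fewest bases of the 5.

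The secreted modulators carried little H3K27ac, and 10 of the 12, all except *Dkk3* and *Sfrp1*, had peaks in 1 list at most. *Dkk3*, a divergent Dickkopf that is not a canonical inhibitor of LRP6, rose in all 4 comparisons, with 1.62% at D0 and, from W1 to W12, 6.53%, 8.80%, 6.48% and 3.04%. Its intronic peak at chr7:112137528-112139831 was absent at D0 and W1 and had folds of 7.72, 9.54 and 4.96 at W2, W6 and W12, while a second intronic peak (chr7:112143015-112145472) was in all 5 lists with folds of 6.0, 9.24, 11.9, 9.54 and 7.79. *Sfrp1* had 2.86%, 4.05%, 6.14%, 2.79% and 0.133%, was called up at W2 and down at W12, and had a promoter peak at W2 alone (fold 7.72). An intronic *Sfrp1* peak at chr8:23443036-23443765 was absent at D0 and had folds of 6.93, 4.91 and 8.35 at W1, W2 and W6. *Sfrp2* had 1 weak peak at D0 (fold 3.16, 0.617% of the locus) and none later. The strongest D0-only peaks at *Sfrp1*, *Lrp6*, *Dkk3* and *Lrp5* were weak too, with folds of 5.33, 4.66, 4.0 and 3.76.

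At W12, 7 of the 12 modulators rose, where 14.5% of other coding genes did. Besides *Dkk3* these 7 were *Dkk2*, *Dkk4*, *Sfrp4*, *Rspo1*, *Rspo3* and *Rspo4*, which had no peak in any earlier list. In those 6, peaks covered 0.245 to 1.41% of the locus at W12. With only the higher-scoring part of each list (above its median score), members of any role up at W12 numbered 3 in place of 10. Of the 9 modulator regions called at W12 alone, 3 lay in an H3K4me1 domain of W12 and 6 lay in none of the 5 H3K4me1 lists. Over W12-only regions at other coding genes, 52.1% lay in a W12 domain and 36.4% in none. *Rspo2* had 1 peak, at W1 (fold 3.85). *Dkk1* and *Sfrp5* had no peak in any list.

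The gained peaks are shown by 3 windows of 300 bases around the summits of the strongest peaks that were absent at D0, gained by W2 and kept to W6, one per gene (*Dkk3* at chr7:112139042-112139341, *Fzd1* at chr5:4768083-4768382 and *Fzd7* at chr1:59479313-59479612, forward strand of GRCm38.p6). Capitals again mark AACAAT or ATTGTT, which occurs once, in *Dkk3*.
Dkk3 intron: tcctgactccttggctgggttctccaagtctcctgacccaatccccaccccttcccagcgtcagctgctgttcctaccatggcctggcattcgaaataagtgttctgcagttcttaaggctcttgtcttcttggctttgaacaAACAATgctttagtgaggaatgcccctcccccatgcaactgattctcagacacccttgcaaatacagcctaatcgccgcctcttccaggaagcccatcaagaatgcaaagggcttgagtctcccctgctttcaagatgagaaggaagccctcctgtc
Fzd1 upstream: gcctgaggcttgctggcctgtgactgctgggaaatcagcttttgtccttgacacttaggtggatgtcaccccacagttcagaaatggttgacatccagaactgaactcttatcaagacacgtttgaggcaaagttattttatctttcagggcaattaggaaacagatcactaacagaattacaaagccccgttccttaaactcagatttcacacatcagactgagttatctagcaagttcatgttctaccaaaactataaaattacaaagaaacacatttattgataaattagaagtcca
Fzd7 upstream: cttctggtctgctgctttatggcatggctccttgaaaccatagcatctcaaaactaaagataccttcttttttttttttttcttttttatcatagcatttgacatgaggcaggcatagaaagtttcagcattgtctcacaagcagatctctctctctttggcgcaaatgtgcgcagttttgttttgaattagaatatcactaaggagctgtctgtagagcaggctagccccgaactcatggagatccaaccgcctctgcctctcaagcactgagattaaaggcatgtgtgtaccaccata
For contrast, the *Fzd7* promoter (chr1:59481897-59482196, forward strand, RefSeq, GRCm38.p6) is printed with its 24 CpG dinucleotides in capitals, since this peak was present before induction.
Fzd7 promoter: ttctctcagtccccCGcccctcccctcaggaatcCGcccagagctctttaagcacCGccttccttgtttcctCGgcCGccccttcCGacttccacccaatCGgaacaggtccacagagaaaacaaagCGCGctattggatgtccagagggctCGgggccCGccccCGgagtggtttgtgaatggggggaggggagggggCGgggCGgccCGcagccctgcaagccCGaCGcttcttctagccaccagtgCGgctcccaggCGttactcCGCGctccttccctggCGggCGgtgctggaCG

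Regions lost and gained were set beside H3K4me1. Lost regions had an H3K27ac peak at D0, or at D0 and W1, and in no later list. There were 33 of them, 26 at 8 ligand genes, 4 at 4 receptor genes and 3 at 3 modulator genes. They made up 32.1% of ligand and 6.35% of receptor regions, against 11.4% of regions at other coding genes. Of the 26 lost ligand regions, all lay in an H3K4me1 domain at D0, and 22, 20, 23 and 23 still did from W1 to W12. Of 5854 lost regions at other coding genes, 94.1%, 90.5%, 83.4%, 86.7% and 86.3% lay in such a domain from D0 to W12. The lost ligand peaks were weak: their median was about 6 stacked fragments at D0, and 7 of the 26 reached the D0 median of 8. Gained regions, without a peak at D0 and with one in at least 2 of W1, W2 and W6, numbered 24. Of these, 4 lay at 3 ligand genes, 14 at 7 receptor genes and 6 at 2 modulator genes. They were 22.2% of receptor and 4.94% of ligand regions, against 9.76% at other coding genes. All 24 already lay in an H3K4me1 domain at D0, as did 95.2% of 5011 such regions at other coding genes.

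The letters AACAAT or ATTGTT occurred in 6 of the 24 gained windows of 300 bases (25%) and in 2 of the 33 lost ones (6.06%), against 9.90 to 12.6% of all peak windows of a list. Of the 6 gained windows, 3 were among the 6 modulator regions, which lie at 2 genes. Gained and lost regions at other coding genes were not searched, so whether their shares differ from these is unknown. CTTTGAT or ATCAAAG occurred in 0 gained and 1 lost window, against 3.75 to 4.37% of all. In no printed peak window did the motifs overlap. RefSeq promoters of 300 bases were found for 27 of the 43 genes (30 sequences), with a median of 28 CpG, against 7 over all 32851 promoters. The SOX letters were in 1 of these 30 and in 10.7% of all promoters, and the TCF/LEF letters in 2 of the 30 and in 3.73% of all. A match is a string of letters and no measure of binding. The paper mapped SOX9 binding by CUT&RUN in sorted EpdSCs, and those data were not used here.

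H3K4me1 was broad at these loci before induction, and it covered less of most ligand loci in the later lists. D0 was also the widest of these lists, with 310 Mb against 264 to 295 Mb later. The median log2 ratio of members to D0 was -0.24, -0.27, -0.43 and -0.42 from W1 to W12. Relative to the list total it was -0.01, -0.20, -0.25 and -0.23, where other coding genes had 0.00. It covered a median of 28.4% of a member locus at D0 and, from W1 to W12, 24.9%, 27.8%, 24.2% and 27.1%, where other coding genes had 18.2%, 14.7%, 15.8%, 15.4% and 15.4%. At least 1 domain was found at 39 to 42 of the 43 (90.7 to 97.7%) in each list, against 79.5 to 82.1% of other coding genes. At W1, 1 member rose and 12 fell (2.74% and 17.4% of other coding genes). At W2, 9 rose and 15 fell (8.55% and 18.3%), at W6, 1 rose and 14 fell (7.28% and 17.8%), and at W12, 0 rose and 15 fell (7.49% and 19.4%). No ligand rose in any of the 4, while 7, 9, 7 and 7 of 19 fell. Of the receptors 6 of 12 rose at W2, with 0, 1 and 0 at W1, W6 and W12. The median of ligand loci was 52.7% at D0 and 32.9% to 35.3% later.

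**Figure D4:**
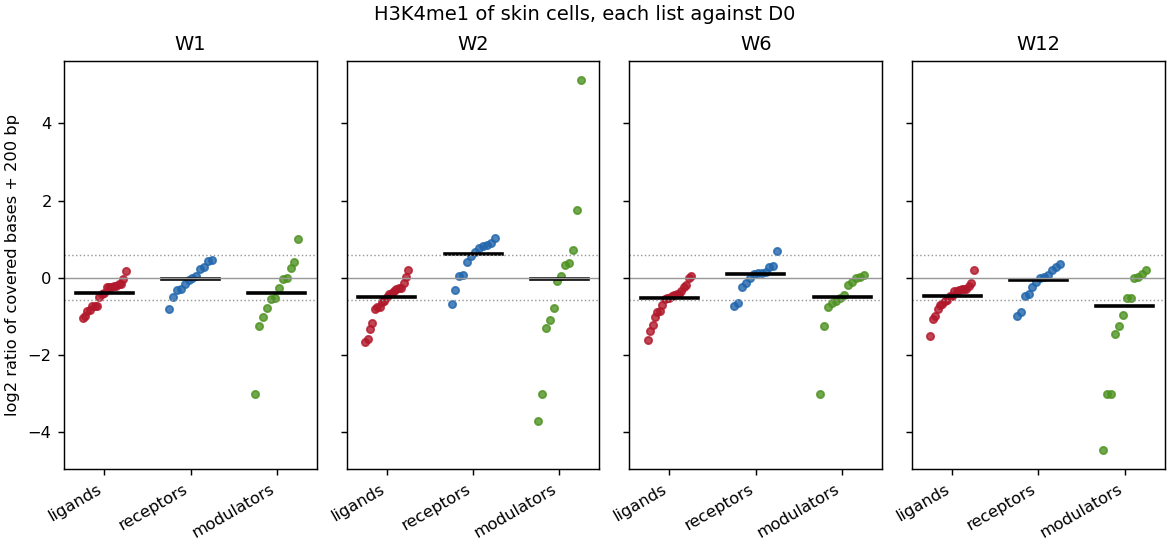
Log2 ratio of H3K4me1-covered bases (plus 200 bp) of each later list to D0 (y axis) for every gene, grouped by role (x axis), with black bars at the group medians and dotted lines at 1.5-fold. Ligands centre below 0 in all 4 panels (medians -0.40, -0.50, -0.52 and -0.46), and receptors stand above 0 at W2 (median 0.62). Other coding genes, not drawn, had medians of -0.15, -0.05, -0.08 and -0.11.

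*Wnt3* again moved most in percentage points from D0 to the mean of W2 and W6, though not as a ratio, with H3K4me1 over 83.2% of its locus at D0, then 49.8%, 32.9% and 35.3%, and 55.6% at W12, which was within 1.5-fold of D0. *Wnt3a* fell from 57.8% to 34.6%, 25.3%, 35.3% and 33.1%, and *Wnt5a* from 44.4% to 24.9%, 26.2% and 23.9% before 38.0% at W12, again within 1.5-fold of D0. *Wnt7a*, without acetylation in any list, had 36.2%, 19.9%, 11.9%, 13.7% and 17.2%. *Fzd10* kept 79.9% and 77.1% at D0 and W1 and fell to 49.8%, 51.2% and 40.1%. Rises were led by *Fzd7* (28.7%, 39.5%, 51.5%, 46.7% and 33.2%), *Lrp6* (28.4%, 33.4%, 52.9%, 34.2% and 30%) and *Sfrp1* (49.2%, 48.7%, 80.4%, 45.6% and 49.7%). *Fzd7* was called up at W2 and W6 and the other two at W2. *Fzd2* showed the same single high list, with 27%, 24.3%, 55.9%, 22.9% and 19.2%. *Dkk2*, *Rspo2*, *Rspo3* and *Rspo4*, of which *Rspo2* and *Rspo3* are best known from mesenchyme, had 5.04% or less in every list.

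Of 38 other genes of the pathway (co-receptors and R-spondin receptors of other families, inhibitors, genes for Wnt secretion and intracellular components), 15 rose in H3K27ac and 1 fell at W1, 13 and 1 at W2, 13 and 1 at W6 and 8 and 14 at W12, to be read against the background shares given above. Among those singled out after their values were seen, *Lgr4* rose at W1, W2 and W6, and *Lgr6* and *Sostdc1* rose in all 4. LGR4 and LGR6 are R-spondin receptors, and SOSTDC1 is a secreted inhibitor of BMP and Wnt signals. *Tcf7l1*, a repressive TCF of hair follicle stem cells, rose at W1, W2 and W6. In H3K4me1 of skin, 1, 6, 2 and 4 of the 38 rose and 2, 2, 3 and 6 fell. Of other coding genes, 2.74%, 8.55%, 7.28% and 7.49% rose and 17.4%, 18.3%, 17.8% and 19.4% fell.

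In cultured EpdSCs, H3K4me1 was present at 42 of the 43 loci in all 4 lists, with a median coverage of 9.88% without DOX, 9.83% with WT, 11.3% with ΔHMG and 10.7% with ΔTA. Of other coding genes, 84.2 to 85.8% had a domain, with medians of 7.55%, 8.37%, 7.84% and 8.39% in the same order. *Fzd10* had no domain in any culture list. The culture lists have another layout than those of skin, and levels were not compared between them. With WT, 3 members rose and 6 fell (15.3% and 8.49% of other coding genes). With ΔHMG, 2 rose and 3 fell (8.44% and 5.59%), and with ΔTA, 9 rose and 4 fell (14.6% and 5.39%). These counts are 6.98% and 14.0%, 4.65% and 6.98%, and 20.9% and 9.30% of the 43. The exact 95% intervals hold the share of other genes in all 6 cases. As in skin, these intervals hold counting error only and take the loci as independent. Each culture condition also has only a pooled list, so the intervals cannot decide whether members differ from other genes.

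**Figure D5:**
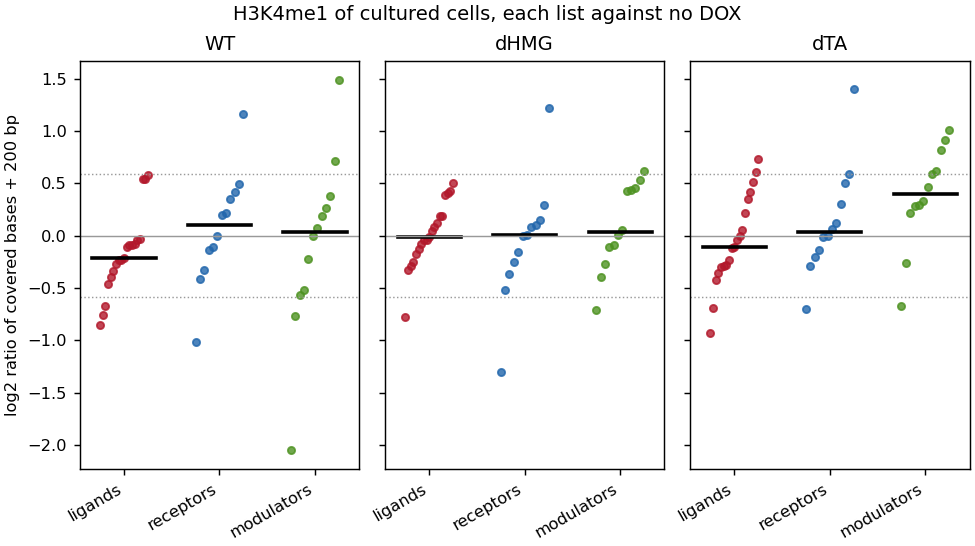
Log2 ratio of H3K4me1-covered bases (plus 200 bp) of each DOX-treated culture list to the list without DOX (y axis), for every gene by role (x axis), with black bars at medians and dotted lines at 1.5-fold. Most genes lie between the dotted lines, and the lowest point, with WT, is *Rspo1* (-2.05).

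*Fzd4* fell with all 3 variants, with 15.4% without DOX and 7.39%, 5.98% and 9.32% with WT, ΔHMG and ΔTA. Both of its distal domains at 11288 and 13394 bp from the start site were called without DOX only. *Wnt9b* (7.20%, 3.84%, 7.40% and 5.85%) and *Sfrp4* (3.18%, 1.70%, 2.58% and 4.53%) fell with WT and with neither mutant. *Wnt3* fell with WT and ΔTA (16.9%, 9.83%, 13.7% and 10.3%). *Rspo1* was singled out after its values were seen: its coverage was 7.73% without DOX, 1.62% with WT, 11.3% with ΔHMG and 15.9% with ΔTA, so that it fell with WT (log2 ratio -2.05) and rose with ΔTA (log2 ratio 1.01). Its intronic domain at 11377 bp from the start site (chr4:124997807-125000583) was called in the other 3 lists and not with WT, with folds of 3.43, 3.97 and 3.70. Of the 38 other pathway genes, 8 rose and 2 fell with WT, 2 rose and 1 fell with ΔHMG, and 4 rose and 2 fell with ΔTA. The shares of other coding genes were 15.3% and 8.49%, 8.44% and 5.59%, and 14.6% and 5.39%.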

How the data were processed

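H3K4me1, H3K27ac and total H3 were profiled by MINT-ChIP in 38 libraries of 16 groups, which were taken from the labels. The authors split reads by barcode, trimmed them with Skewer, aligned them to mm10 with Bowtie2 2.2.9, removed duplicates with Picard, merged replicates with SAMtools 1.9 and called H3K27ac peaks with MACS2 2.1.1 and H3K4me1 domains with epic2 (SICER 0.0.36 in the submitters' processing notes). Caller settings and controls were not given in the sources used here. Because W2 replicate 1 and W12 were sequenced in common libraries, 6 libraries carry both. The deposited skin H3K4me1 lists give a p-value per domain. The deposited H3K27ac and culture lists give a score, a fold enrichment as a linear ratio and the −log10 of q, of which the fold and score were used. Culture conditions were read from the list names, and the culture lists have the layout of MACS2 broad peaks, so that their caller is unclear. Total H3 (12 libraries) and 14 barcode files were not used.

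Loci came from GENCODE M21 (basic set, 21 chromosomes), with coordinates counted from 1. Covered bases were compared as (bases + 200) ratios with a limit of 1.5-fold, and a promoter peak lay within 1000 bp of a start site. Fold was read as (pileup + 1)/(background + 1), and 82.3 to 95.9% of H3K27ac peaks of a list then fell within 0.002 of a whole number of fragments, so that pileups are approximate. Motifs were searched on both strands of 300 bp windows. Overlap and coverage functions were tested on simulated intervals. Python 3.11.15, pandas 2.3.3 and scipy 1.17.1 were used, with exact Clopper-Pearson intervals.

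The genes and gene lists were chosen with earlier results of these data known. Genes were described in full by a rule: those called in 1 direction for H3K27ac in at least 3 of 4 later lists, the 5 widest covered at D0, the 3 largest rises and falls per mark from D0 to the mean of W2 and W6, and in culture those called with WT and neither mutant or with all 3. Single peaks were those with the highest fold among the gained and among the lost of such a gene; other peaks of these genes were chosen after their values were seen. The alternatives were coverage relative to the list total, intervals above the median score, lists of equal length, an overlap of 50% of the interval, and flanks of 50 kb.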

Additional observations from a re-analysis of the deposited data

How the results depend on the processing

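No paired analysis was possible because each list pools the replicates of its group, and for the same reason no replicate could be left out. The split into ligands and receptors, and gene bodies without flanks, were chosen after seeing the data. Ligands down in H3K27ac numbered 6 to 9 at W1, 7 to 10 at W2, 8 to 11 at W6 and 10 to 15 at W12 over all alternatives, and receptors up 4 to 5, 6 to 7, 7 to 10 and 2 to 5. Of other coding genes, 12.1 to 16.0% fell at W1, 10.8 to 16.4% at W2 and 22.0 to 31.4% at W12 over the same settings. The counts below left 1.5 times the value in the report, and the cause was not tested. They are given without the share of other genes, which also shifts with the setting. Without that share beside it, a moved count does not show whether members moved more than other genes. With flanks of 50 kb, members down in H3K4me1 numbered 7 at W1, 9 at W2 and 7 at W12, and 3, 1 and 1 with WT, ΔHMG and ΔTA, members up numbered 0 at W6, 2 at W12 and 1 with WT, and receptors up in H3K27ac at W12 numbered 5. Relative to the list total, members down in H3K4me1 numbered 7 at W1 and 9 at W6, members up 4 at W1 and 4 with ΔTA, and receptors up in H3K27ac at W12 again 5. With intervals above the median score, members up in H3K4me1 numbered 2 at W1, 5 at W6, 1 at W12 and 6 each with WT and ΔHMG, members down with ΔHMG 6, and members up in H3K27ac at W12 3. With lists of equal length, 3 were up in H3K4me1 at W1 and 3 at W6, and with 50% of an interval required in the locus, 0 at W6. Lost ligand peaks stood on a median of 6 fragments at D0, and the W1, W2 and W12 lists were shallower than D0. The part of depth was not tested.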
